A study of Mus musculus with 8 samples.

Results

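The sulfotransferases of the liver and Papss2, which makes their sulfate donor, were followed in livers of mice with and without a hepatocyte knockout of Nnmt. The 10 genes, of 33212 in the count table, were Sult2a1, Sult2a2, Sult2a8, Sult1a1, Sult1b1, Sult1c2, Sult1d1, Sult1e1, Sult5a1 and Papss2. The group was put together because Sult2a1 and Sult2a2 were higher in the knockout, so these 2 genes were chosen by the comparison reported here and their values are given as a description, without a test. By symbol, 9 members were found, and Sult2a8, which stands in the count table under the older symbol 2810007J24Rik, was found by its Ensembl identifier. All 10 passed the filter on low counts.

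Liver RNA of 4 Nnmt KO mice and 4 control mice was sequenced, with 1 library per mouse. Nnmt KO mice carried Alb-Cre, which is active in hepatocytes, with floxed alleles of Nnmt, so that Nnmt in the other cells of the liver is left intact, and the libraries are labelled Nnmt LKO. The control mice are labelled WT in the sample descriptions and Control in the table, and the paper gives the controls of its MCD experiment as Nnmt flox/flox mice. The strain was C57BL/6 by the labels, and by the study's methods the mice were male and were given a diet without methionine and choline (MCD) for 8 weeks. Their age is not given in the sources used here. Total counts per library ran from 75020072 to 87934362, at which 3 counts stand for 0.0341 to 0.0400 CPM (the count scaled to the library's total and, in all values below except this floor, by edgeR's TMM factor). Floors of this kind cover counting error only.

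Cytosolic sulfotransferases move a sulfate group from the donor PAPS to hydroxyl groups of steroids, bile acids, thyroid hormone, catecholamines and drugs, which makes these compounds more soluble in water and mostly inactive. The Sult2a enzymes act on hydroxysteroids and bile acids, and in mice several of their genes are expressed more in female than in male liver. The enzymes of the Sult1 family act mainly on phenols, estrogens and catecholamines, and Papss2 encodes a synthase of PAPS.

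The targeted gene was read first. Nnmt, the nicotinamide N-methyltransferase gene, was at 31.8, 44.8, 68.9 and 83 CPM in Nnmt KO libraries a to d and at 112, 224, 134 and 84.9 CPM in control libraries a to d. Every Nnmt KO library was below every control library, though d of each group lay close together. The fitted difference was -1.28 in log2 (SE 0.33), with an adjusted p of 0.123 by the quasi-likelihood test of edgeR, adjusted by Benjamini-Hochberg over 15291 genes, and DESeq2 gave an adjusted p of 0.00484, with a range over all alternatives from 0.00484 to 0.296.

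Library a of the Nnmt KO group stood apart in values other than those of the members. Its TMM factor was 1.209, where Nnmt KO libraries b to d had 0.9524 to 0.9774. The 5 hepatocyte markers found (Alb, Apoa1, Ttr, Fgb and Apob, with Alb the most abundant) summed to 59892 CPM in this library and to 91603, 104822 and 103702 CPM in Nnmt KO libraries b to d. In control libraries a to d the same sum was 92501, 105280, 73536 and 84680 CPM. The 5 cholangiocyte markers, with Spp1 the most abundant, went the other way, at 278 CPM in library a and at 101, 88.8 and 177 CPM in b to d, beside 49.9, 61.5, 167 and 89.3 CPM in the control libraries. Of these 5 genes, 1, Epcam, had an unadjusted p under 0.05, where 5.45% of all tested genes were higher at that threshold, with a log2 fold change of 0.80 (SE 0.31). In whole liver, fewer hepatocytes and less RNA per hepatocyte cannot be told apart. The part of cell composition in the results was not tested, and some values below are also given without this library.

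Sult2a1 (ENSMUSG00000078798) encodes a sulfotransferase of hydroxysteroids and bile acids and lies on the minus strand at chr7:13796246-13837409 (GRCm38). It had 204, 304, 271 and 304 counts in Nnmt KO libraries a to d, with 20, 10, 46 and 32 counts in control libraries a to d. Scaled between libraries, these were 2.23, 3.77, 3.24 and 4.24 CPM in Nnmt KO and 0.241, 0.132, 0.53 and 0.381 CPM in control mice. The groups did not overlap, the lowest Nnmt KO library being a and the highest control library c. Because of control library b, the control libraries of Sult2a1 alone would not have passed the filter on low counts. Sult2a1 passed it through its Nnmt KO libraries. The means were 3.37 ± 0.862 CPM in Nnmt KO and 0.321 ± 0.173 CPM in control mice (SD, n = 4 each), a ratio of 10.5 and a log2 fold change of 3.38 (SE 0.39).

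Sult2a2 (ENSMUSG00000070811), the gene of the cluster most like it in transcript sequence, lies next to it on the plus strand at chr7:13733505-13779636. Its counts were 949, 2502, 2267 and 2129 in Nnmt KO libraries a to d, with 178, 50, 481 and 309 counts in control libraries a to d. The corresponding levels were 10.4, 31, 27.1 and 29.7 CPM and 2.15, 0.66, 5.54 and 3.67 CPM. Again no control library reached the lowest Nnmt KO library, which was library a, and control library b was lowest for both genes. The means were 24.5 ± 9.58 and 3.01 ± 2.09 CPM (SD, n = 4 each), a ratio of 8.16 and a log2 fold change of 3.02 (SE 0.53). Without Nnmt KO library a the log2 fold change was 3.53 (SE 0.38) for Sult2a1 and 3.28 (SE 0.47) for Sult2a2.

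With each library left out in turn, the log2 fold change ran from 3.13 to 3.73 for Sult2a1 and from 2.70 to 3.50 for Sult2a2. In both genes the lowest value came from leaving out control library b and the highest from leaving out control library c. The count of Sult2a2 was 4.65 to 8.37 times that of Sult2a1 in Nnmt KO libraries and 5 to 10.5 times in control libraries, so the ratio between the pair overlapped between genotypes while the level of each did not.

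Sult2a8 (ENSMUSG00000030378), which in mouse liver encodes a sulfotransferase of bile acids, is the third member from this cluster and lies at chr7:14410686-14446769 on the minus strand. Its levels were 5.47, 15.9, 14 and 29.8 CPM in Nnmt KO libraries a to d, with 16.6, 14.2, 18.3 and 12.5 CPM in control libraries a to d. The lowest and the highest of the 8 values were both in the Nnmt KO group, in libraries a and d, and the control group lay between them. The log2 fold change was 0.08 (SE 0.37, adjusted p = 0.948 by edgeR's test over all tested genes), 0.37 without library a, -0.39 without library d and -0.01 without control library d.

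**Figure D1:**
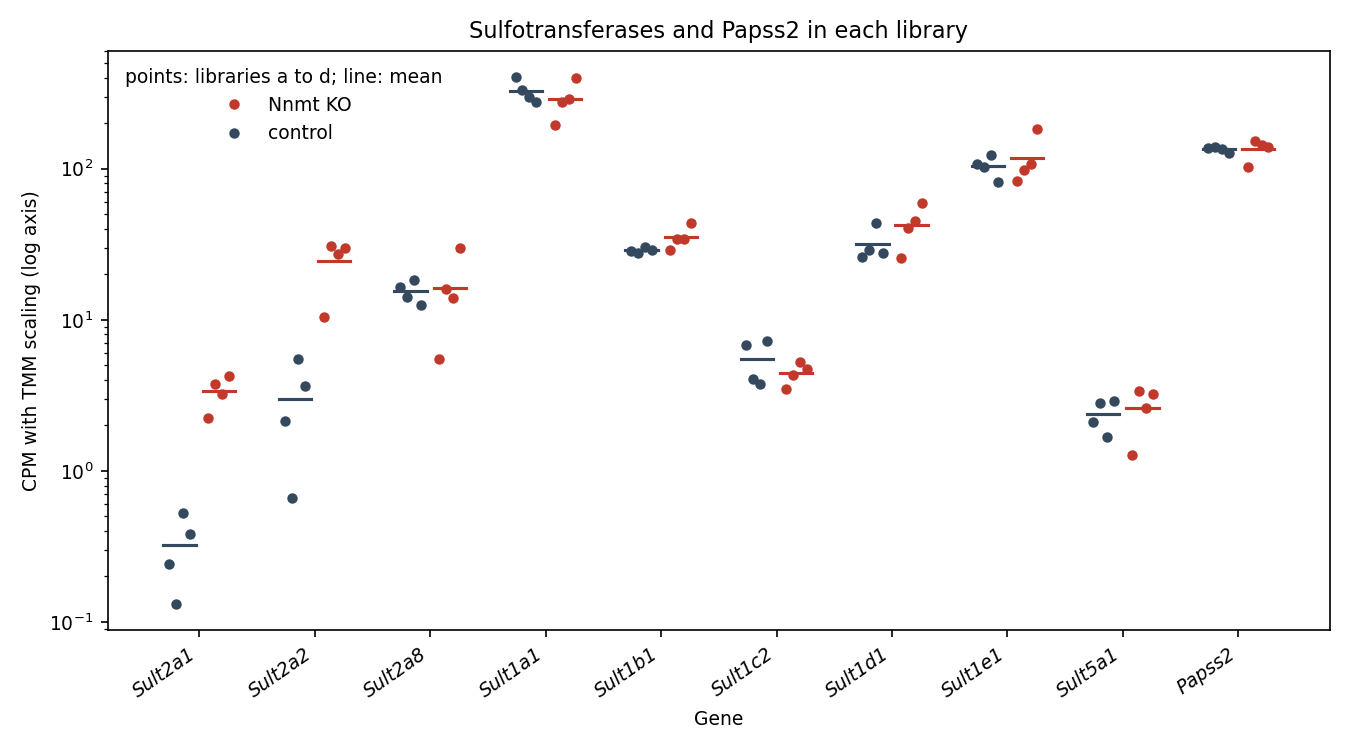
Level of each member in each library, as CPM with TMM scaling on a log axis, with control libraries in grey-blue on the left and Nnmt KO libraries in red on the right of each gene (points in the order a to d, lines at the mean, n = 4 each). Sult2a1 and Sult2a2, which were chosen for this difference, have no overlap between groups, and the other 8 genes overlap.

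The Sult1 members were all expressed. Sult1a1, the main phenol sulfotransferase, was at 194, 276, 291 and 401 CPM in Nnmt KO libraries a to d and at 404, 332, 298 and 275 CPM in control libraries a to d. Sult1e1, the estrogen sulfotransferase, was at 82.4, 97.4, 107 and 183 CPM in Nnmt KO and at 108, 103, 123 and 81.8 CPM in control libraries. For both genes the ranges overlapped and Nnmt KO library d was the highest of its group, with log2 fold changes of -0.17 (SE 0.20) for Sult1a1 and 0.18 (SE 0.23) for Sult1e1, the latter turning to -0.12 without library d.

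Sult1b1, which acts on thyroid hormone and phenols, was at 29, 34, 34.2 and 43.8 CPM in Nnmt KO libraries a to d and at 28.6, 27.5, 30.4 and 28.9 CPM in control libraries a to d. Its control values were close together and 3 of the 4 Nnmt KO values lay above all of them, while library a lay among them. Its log2 fold change of 0.29 (SE 0.13) had a p of 0.0425 before adjustment and an adjusted p = 0.375 by edgeR's test over all tested genes. Sult1d1, a sulfotransferase of catecholamines, is encoded beside Sult1b1 and Sult1e1 on chromosome 5 and was at 25.8, 40.2, 44.9 and 59.4 CPM in Nnmt KO and at 26.2, 29.1, 43.8 and 27.8 CPM in control libraries. Here 1 control library, c, lay far above the other 3 of its group, and library a was the lowest of the 8. The log2 fold change was 0.42 (SE 0.24, adjusted p = 0.486 by edgeR's test), and it was 0.62 without control library c and 0.60 without Nnmt KO library a.

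Sult1c2 and Sult5a1 had the lowest levels per kb of exon among the members outside the Sult2a cluster. Sult1c2 ranged from 3.46 to 5.27 CPM in Nnmt KO and from 3.78 to 7.21 CPM in control libraries, with a log2 fold change of -0.30 (SE 0.24). Sult5a1, whose substrates are little known, ranged from 1.28 to 3.36 CPM and from 1.67 to 2.88 CPM, with a log2 fold change of 0.14 (SE 0.31). Papss2 was at 103, 152, 144 and 139 CPM in Nnmt KO libraries a to d and at 137, 139, 135 and 127 CPM in control libraries a to d. Its mean was 135 CPM in both groups, with an SD of 21.8 CPM in Nnmt KO and of 5.33 CPM in control mice, and its log2 fold change was 0.00 (SE 0.13, adjusted p = 1 by edgeR's test), or 0.11 without library a.

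Of the 8 members other than the chosen pair, 0 had an adjusted p under 0.05 by edgeR's test, where 49 of all 15291 tested genes (0.320%) did in either direction, and 0 did by DESeq2's test, where 502 of all tested genes did. Among them 1, Sult1b1, had an unadjusted p under 0.05 by each tool, where 5.45% of all tested genes did so in the direction of higher levels in Nnmt KO and 7.13% in the other. With 1 library left out, Sult1b1 kept an unadjusted p under 0.05 without Nnmt KO library a alone, with p from 0.00945 to 0.136 by edgeR's test, and Sult1d1 reached one without Nnmt KO library a or control library c. Their log2 fold changes ran from -0.30 to 0.42 with a median of 0.11, beside 0.02 for all tested genes. In none of the 8 did the groups separate, while the libraries of 8.16% of all tested genes did.

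Levels of different genes were compared as CPM per kb of exon in GENCODE's annotation. In control livers Sult1a1 was highest, with 217 ± 37.3 CPM per kb (SD, n = 4), followed by Sult1e1 with 83.7 ± 13.7 and Papss2 with 36.2 ± 1.43 CPM per kb. After Papss2 came Sult1d1, Sult1b1, Sult2a8, Sult2a2, Sult1c2, Sult5a1 and, lowest, Sult2a1 with 0.315 ± 0.169 CPM per kb. Neighbours in this order whose library ranges overlapped were Sult1d1 with Sult1b1, Sult2a8 with Sult2a2, Sult2a2 with Sult1c2, and Sult5a1 with Sult2a1. In Nnmt KO livers Sult2a2, at 33.1 ± 12.9 CPM per kb, stood at rank 4, next to Papss2 at 36.2 ± 5.86 CPM per kb, with overlapping ranges. The range of Sult2a2 in these livers, 14 to 41.8 CPM per kb, also overlapped that of Sult1d1 below it, 10.5 to 24.2 CPM per kb. Sult2a1, at 3.3 ± 0.845 CPM per kb, overlapped there with Sult2a8 above it and with Sult1c2 below it. The annotated length of Sult2a2, 741 bases, is the shortest of the 10, and the annotation used for the deposited counts is not given in the sources used here, so levels per kb of this gene are less sure.

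The Sult2a cluster holds 8 genes between 13623967 and 14494230 on chromosome 7, of which the rule named 3. In the order of the chromosome they are Sult2a5, Sult2a2, Sult2a1, Sult2a4, Sult2a3, Sult2a6, Sult2a8 and Sult2a7. Sult2a5 (chr7:13623967-13670807), the outermost gene on the side of Sult2a2 and Sult2a1, had 16, 81, 129 and 174 counts in Nnmt KO libraries a to d, with 0, 9, 12 and 13 counts in control libraries a to d. In CPM it was at 0.175, 1, 1.54 and 2.43 in Nnmt KO and at 0, 0.119, 0.138 and 0.155 in control libraries. The groups did not overlap, but Nnmt KO library a was just above the highest control library. Sult2a5 passed the filter on low counts through its Nnmt KO libraries, since its control libraries alone would not have passed, so its test is not independent of its being high there and supports nothing here. Its log2 fold change was 3.62 (SE 0.86, adjusted p = 0.104 by edgeR's test). DESeq2 gave an adjusted p of 0.000638, edgeR's test without Nnmt KO library a gave a log2 fold change of 3.99 with an adjusted p of 0.0245, and over all alternatives the adjusted p ranged from 0.000638 to 0.264.

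On the other side of Sult2a1 the groups overlapped in every gene. Sult2a3 was at 4.51, 13.5, 15.2 and 28.4 CPM in Nnmt KO libraries a to d and at 23.2, 12.4, 13.7 and 13.8 CPM in control libraries a to d, with a log2 fold change of -0.04 (SE 0.42, adjusted p = 0.979 by edgeR's test), or 0.27 without Nnmt KO library a and -0.52 without Nnmt KO library d. As for Sult2a8, the lowest and the highest value were in Nnmt KO libraries a and d. Sult2a7 ranged from 0.197 to 1 CPM in Nnmt KO and from 0.346 to 0.651 CPM in control libraries, with a log2 fold change of 0.50 (SE 0.48, adjusted p = 0.702 by edgeR's test), and had an unadjusted p under 0.05 without Nnmt KO library a. Sult2a4, with 9 and 3 counts in 1 library of each group, and Sult2a6, with 4 and 7, were at 0 in every other library and were not tested.

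**Figure D2:**
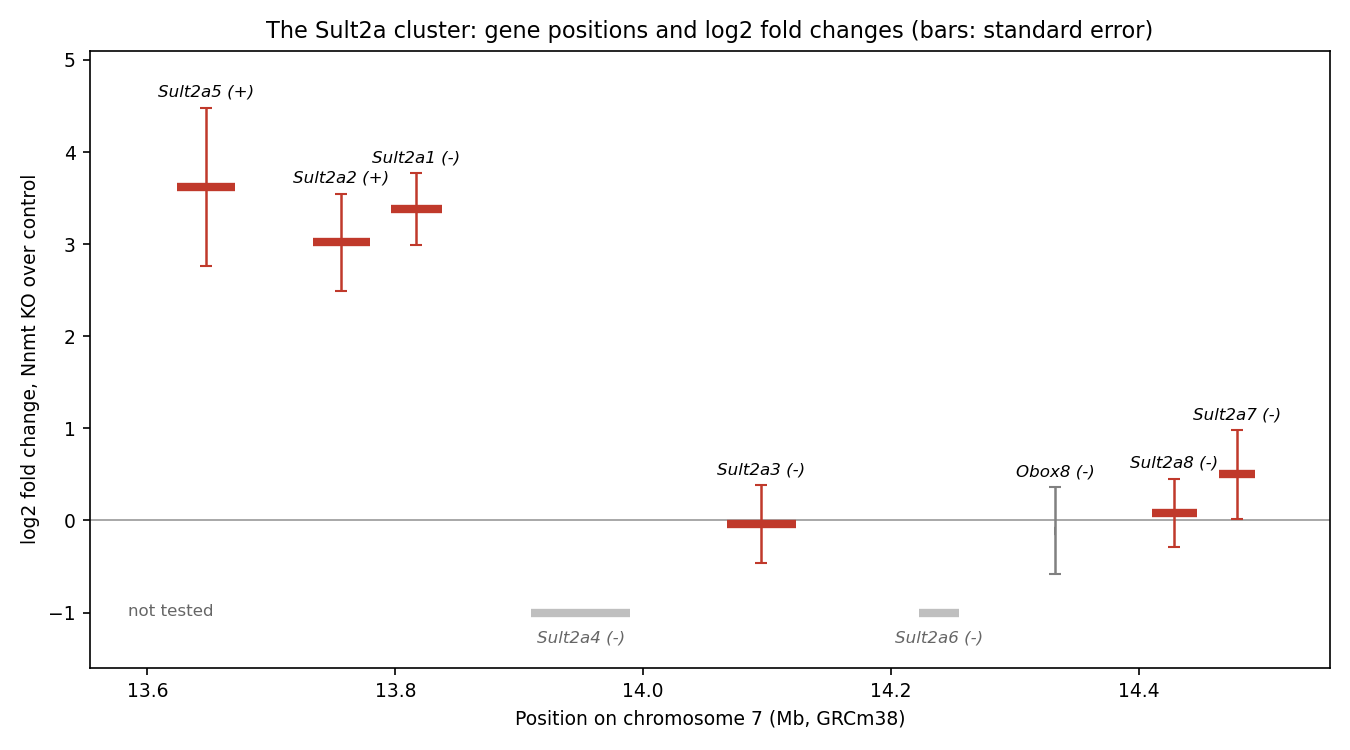
Map of the Sult2a cluster on chromosome 7 (GRCm38, Mb), with each gene drawn to scale as a horizontal bar at its log2 fold change of Nnmt KO over control and a vertical bar for 1 standard error, strand in brackets, and grey for a gene of another family or one not tested. Sult2a5, Sult2a2 and Sult2a1 lie side by side at log2 fold changes of 3.62, 3.02 and 3.38, and Sult2a3, Sult2a8 and Sult2a7 at -0.04, 0.08 and 0.50.

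Summed over the 8 genes, Sult2a transcripts were at 23, 66.1, 61.9 and 95.6 CPM in Nnmt KO libraries a to d and at 42.8, 28.2, 38.7 and 31.1 CPM in control libraries a to d. The sums overlapped, since Nnmt KO library a was below all control libraries and the other 3 were above them. Sult2a5, Sult2a2 and Sult2a1 together made up 49.8 ± 8.06% of the summed counts in Nnmt KO and 9.6 ± 6.17% in control libraries (SD, n = 4 each), with ranges of 38 to 55.7% and 3.24 to 16.1%. In library a their share, 55.7%, was the highest of the 8, although its Sult2a sum was the lowest. Sult2a2 and Sult2a1 were chosen for their rise, and Sult2a5 passed the filter on low counts through its Nnmt KO libraries. The higher share in Nnmt KO follows from that choice and tests nothing. The other 3 tested genes, Sult2a3, Sult2a8 and Sult2a7, summed to 32.4 ± 20.1 CPM in Nnmt KO and 31.8 ± 6.36 CPM in control libraries (SD, n = 4 each).

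**Figure D3:**
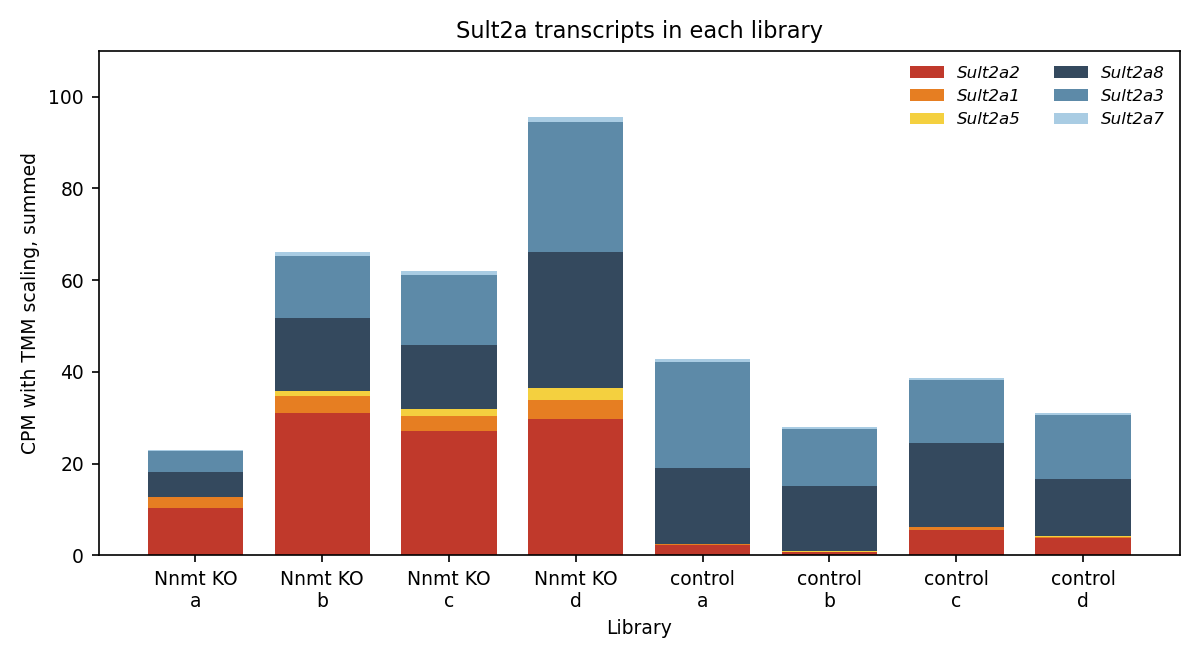
Stacked levels of 6 Sult2a genes in each library, as CPM with TMM scaling, Sult2a4 and Sult2a6 being too low to draw. Sult2a2, Sult2a1 and Sult2a5 at the bottom of each bar sum to between 12.8 and 36.4 CPM in Nnmt KO and between 0.911 and 6.21 CPM in control libraries. Sult2a2 and Sult2a1 were chosen for their rise in Nnmt KO, so the gap between the groups is a description.

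Of the other genes within 1 Mb of the cluster 18 were tested, Obox8 between Sult2a6 and Sult2a8 and otherwise genes before Sult2a5, so that the side of Sult2a7 is not covered. By edgeR's test 0 of them had an adjusted p under 0.05 and 1, Zfp324, had an unadjusted p under 0.05, with a log2 fold change of -0.47, where 7.13% of all tested genes were lower at that threshold. Without Nnmt KO library a, Nnmt KO library c or control library a the count was 0, and without control library d the 1 gene was Trim28 in place of Zfp324. DESeq2 also gave an adjusted p under 0.05 to 0 of them. Their log2 fold changes ran from -0.47 to 0.39, with a median of -0.08 beside 0.02 for all tested genes. The nearest tested gene before the cluster, Lig1, 312534 bases away, was at 8.6 ± 2.91 CPM in Nnmt KO and 7.79 ± 1.18 CPM in control libraries (SD, n = 4 each), and the fitted log2 difference was 0.14 (SE 0.23). The nearest one after it, Selenow, at a distance of 1422978 bases, had a log2 fold change of -0.00 (SE 0.12).

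Transcripts of Sult2a2, Sult2a1 and Sult2a5 are so alike that counts can be exchanged between them. Over aligned bases, Sult2a2 and Sult2a1 were 97.6% identical (721 of 739 bases), Sult2a5 and Sult2a2 96% and Sult2a5 and Sult2a1 94.6%. Likeness was not particular to these genes. Sult2a4 shared 94.9% with Sult2a2 and 94.2% with Sult2a1, and Sult2a3 shared 93.9% with Sult2a2 and 93.4% with Sult2a1. Sult2a8 shared 67.9% with Sult2a1. Of all windows of 150 bases, the length of a read, 20.6% in Sult2a2 (122 of 592), 6.31% in Sult2a1 and 7.47% in Sult2a5 also occurred in a transcript of another gene. For the other 8 members and for Sult2a3 and Sult2a7 the share was 0%. With windows of 75 bases it was 47.2% in Sult2a2, 19.5% in Sult2a1 and 25.6% in Sult2a5, beside 11.5% in Sult2a4 and 1.8% in Sult2a3. These shares set no limit to the exchange, since in Nnmt KO libraries Sult2a2 was at 33.1 CPM per kb, beside 3.3 for Sult2a1 and 1.23 for Sult2a5, and its reads could make up a large part of the counts of both. How many reads of one gene were counted for another was not tested.

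The likeness is shown by the stretch of coding sequence with the most differences between Sult2a1 and Sult2a2, taken from GENCODE's transcripts and printed 5′ to 3′ in the sense of the gene. Capitals mark the positions at which the 3 genes are not all the same. The stretches lie in coding exons, at chr7:13836047-13836106 on the minus strand for Sult2a1, chr7:13734810-13734869 on the plus strand for Sult2a2 and chr7:13625300-13625359 on the plus strand for Sult2a5 (GRCm38). Of 60 bases, 4 differ between Sult2a2 and Sult2a1 and 3 between Sult2a5 and Sult2a1.
Sult2a1: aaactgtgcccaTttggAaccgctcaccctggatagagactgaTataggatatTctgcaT
Sult2a2: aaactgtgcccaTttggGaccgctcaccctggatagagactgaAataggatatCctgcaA
Sult2a5: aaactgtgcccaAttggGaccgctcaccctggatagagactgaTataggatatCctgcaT

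Promoters of the family were read from RefSeq's sequences (GRCm38.p6), in the 250 bases before each gene start, because genes of the cluster differed side by side. The table held 8 of the 10 members and no entry for Sult2a1, Sult2a2, Sult2a7, Sult4a1 and Sult7a1. The motifs searched on both strands were GGTCA directly followed by TGAAC, an inverted repeat of the half-site of nuclear receptors with no base between its parts, and GTTAAT, a half-site of HNF1. The inverted repeat was in 16 of 32851 promoters (0.0487%) and GTTAAT in 6.43%. Among the genes of the family with an entry, the repeat was in Sult2a5 and Sult2a6, and GTTAAT in Sult2a3, Sult2a4, Sult2a5, Sult2a6, Sult1a1, Sult1d1 and Sult3a2.

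The windows around the repeat are shown to set the promoter of Sult2a5, at 1.29 ± 0.945 CPM in Nnmt KO and 0.103 ± 0.0702 CPM in control libraries (SD, n = 4 each), beside those of Sult2a3, with overlapping groups, and of Sult2a4 and Sult2a6, near 0 in both groups. They are in the sense of the gene, at chr7:13623795-13623840 on the plus strand for Sult2a5 and, on the minus strand, at chr7:13989793-13989838 for Sult2a4, chr7:14123198-14123243 for Sult2a3 and chr7:14255041-14255086 for Sult2a6. Capitals mark the 10 bases of the repeat or those aligned with it. Counted from 1 at the 5′ end of the repeat, and with the base of the repeat first, Sult2a4 has G1A and Sult2a3 has C4A. A match to these letters is a description and not a binding site.
Sult2a5: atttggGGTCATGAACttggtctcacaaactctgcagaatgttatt
Sult2a4: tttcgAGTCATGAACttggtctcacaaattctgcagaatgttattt
Sult2a3: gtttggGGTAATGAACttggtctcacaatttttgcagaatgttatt
Sult2a6: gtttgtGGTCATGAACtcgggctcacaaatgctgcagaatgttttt

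Among the other cytosolic sulfotransferases, 12 of 13 listed genes were in the table and 4 of them (Sult2a3, Sult2a5, Sult2a7 and Sult2b1) passed the filter. Of these 4, 0 had an adjusted p under 0.05 by edgeR's test and 1, Sult2a5, had an unadjusted p under 0.05, where 5.45% of all tested genes were higher at that threshold, and passed by DESeq2. Nothing is read from this count or the median, since Sult2a5 passed the filter through its Nnmt KO libraries. Their median log2 fold change was 0.60, beside 0.02 for all tested genes. Sult3a1 and Sult3a2, which encode amine sulfotransferases found mainly in female liver, were at 0 in all control libraries. Sult3a1 had 0, 0, 4 and 11 counts in Nnmt KO libraries a to d and Sult3a2 had 5, 0, 0 and 18, so both were near the floor of 3 counts in most libraries.

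The donor and sulfate supply genes cover the making, transport and breakdown of PAPS and the route from cysteine to sulfate, with 16 of 17 listed genes found and 15 tested. By edgeR's test 0 of the 15 had an adjusted p under 0.05, while 2 were higher and 3 lower in Nnmt KO at an unadjusted p under 0.05, where 5.45% and 7.13% of all tested genes were. DESeq2 gave an adjusted p under 0.05 to Got1 and Slc35b2, as to 502 of all 15291 genes. The median log2 fold change was -0.13, beside 0.02 for all tested genes. Slc35b2, the carrier of PAPS into the Golgi, was at 53.7, 55.6, 60.3 and 51.6 CPM in Nnmt KO libraries a to d and at 88, 84.8, 69.3 and 67.1 CPM in control libraries a to d. Its groups did not overlap, and its log2 fold change was -0.48 (SE 0.12, adjusted p = 0.108 by edgeR's test).

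Slc26a1, a sulfate transporter of the hepatocyte membrane, was at 184 ± 34.2 CPM in Nnmt KO and 265 ± 37.9 CPM in control libraries (SD, n = 4 each), with a log2 fold change of -0.53 (SE 0.16). Got1, which has a step in the route from cysteine to sulfate, was at 1176 ± 433 and 547 ± 238 CPM, a log2 fold change of 1.11 (SE 0.33). The ranges of both genes overlapped between the groups. Impad1, now called Bpnt2, which encodes a phosphatase of the product left from PAPS, and Mpst, a sulfurtransferase gene, had log2 fold changes of 0.33 (SE 0.13) and -0.41 (SE 0.18), and both lost their unadjusted p under 0.05 in some fits with 1 library left out, Impad1 without Nnmt KO library d or control library a and Mpst without either of these, Nnmt KO library a or control library b. Mpst also lost it without a filter on low counts. Papss1, the second PAPS synthase gene, was at 18.4 CPM in Nnmt KO and 17.2 CPM in control libraries on average, with a log2 fold change of 0.09 (SE 0.11).

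Membrane-bound sulfotransferases, which act in the Golgi on proteins, glycans and lipids, numbered 35, of which 25 were tested. By edgeR's test 0 had an adjusted p under 0.05 and 1, Chst15, an unadjusted p under 0.05, with a log2 fold change of 0.39 (SE 0.14), where 5.45% of all tested genes were higher at that threshold. Chst15 did not reach it without Nnmt KO library b, Nnmt KO library c or control library c. DESeq2 gave 0 at an adjusted p under 0.05. Their median log2 fold change was 0.06, beside 0.02 for all tested genes.

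All 22 listed regulators of sulfotransferase genes were tested. At an adjusted p under 0.05 by edgeR's test 1 was higher and 0 were lower, where 0.320% of all tested genes passed in either direction. At an unadjusted p under 0.05 these counts were 1 and 2, beside 5.45% and 7.13% of all tested genes. DESeq2 gave an adjusted p under 0.05 to 1 higher and 1 lower gene, the latter Cebpa, beside 212 higher and 290 lower of all 15291 tested genes. The gene that passed was Cux2, a transcription factor found mainly in female liver, at 2.92, 6.54, 9.55 and 5.2 CPM in Nnmt KO libraries a to d, with 1.36, 1.91, 0.749 and 0.904 CPM in control libraries a to d. The groups did not overlap, and the log2 fold change was 2.30 (SE 0.38, adjusted p = 0.0456 by edgeR's test). Over 12 alternatives its adjusted p ranged from 8.42e-07 to 0.179 and was under 0.05 in 4, and of the fits with 1 library left out it was so without Nnmt KO library a alone. Cebpa, encoding a transcription factor of hepatocytes, was at 173 ± 17 CPM in Nnmt KO and 268 ± 40.1 CPM in control libraries (SD, n = 4 each), with a log2 fold change of -0.63 (SE 0.13, adjusted p = 0.0778 by edgeR's test). Nr0b2, which encodes the repressor SHP, had a log2 fold change of -0.64 (SE 0.19, adjusted p = 0.188 by edgeR's test), and for both genes every Nnmt KO library was below every control library. For Nr0b2 this held narrowly, since the highest Nnmt KO value and the lowest control value both round to 18.4 CPM. The receptor genes Nr1i2, Nr1i3 and Nr1h4, encoding PXR, CAR and FXR, which are known to act on Sult2a genes and were named here after their values were seen, had log2 fold changes of 0.15 (SE 0.18), -0.24 (SE 0.20) and 0.08 (SE 0.13).

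Since Sult2a1, Sult2a2 and Sult3a1 are known as female-typical in mouse liver, 18 other female-typical and 17 male-typical genes were read beside them, from lists written with earlier results of these data known. Of the female-typical genes, 9 had an unadjusted p under 0.05 and all 9 were higher in Nnmt KO, where 5.45% of all tested genes were. By edgeR's test 4 had an adjusted p under 0.05, namely Cyp3a16, Cyp3a41a, Cyp3a41b and Cux2, where 0.320% of all tested genes did in either direction. Cux2 is also the regulator that passed above, so it is counted in both lists. Cyp3a16 was at 2.78, 5.01, 3.5 and 6.1 CPM in Nnmt KO libraries a to d and at 0.543, 0.7, 0.553 and 0.618 CPM in control libraries a to d, with a log2 fold change of 2.84 (SE 0.28, adjusted p = 0.00278 by edgeR's test). Cyp3a41a, with the near copy Cyp3a41b beside it, had a log2 fold change of 2.42 (SE 0.39, adjusted p = 0.0456 by edgeR's test). Over 12 alternatives the adjusted p of Cyp3a16 ranged from 6.56e-19 to 0.0195, while that of Cyp3a41a ranged from 0.000108 to 0.173 and that of Cyp3a41b from 0.000196 to 0.173, each under 0.05 in 4. With 1 library left out, these 2 passed without Nnmt KO library a alone. The median of the list was 0.65, beside 0.02 for all tested genes. By DESeq2 6 genes passed, with A1bg and Cyp2c69 beside the 4 named, where 502 of all 15291 tested genes passed, 212 of them higher in Nnmt KO. Cyp2c69, Cyp17a1 and Fmo2 had log2 fold changes of 1.83 (SE 0.51), 1.34 (SE 0.43) and 0.43 (SE 0.13), with overlapping groups. Others were lower, close to the controls or wide in range, such as Cyp2b9 at -0.42 (SE 0.22), Cyp2a4 at 0.02 (SE 0.24) and A1bg at 4.60 (SE 0.93, adjusted p = 0.0711 by edgeR's test), the latter with 1.7 CPM in Nnmt KO library a and 23.7, 45.2 and 34.2 CPM in libraries b to d.

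Among the male-typical genes, 14 of 17 had log2 fold changes above 0, and the share of all tested genes above 0 was not taken. At an unadjusted p under 0.05, 4 of the male-typical genes were higher and 1 was lower in Nnmt KO, where 5.45% and 7.13% of all tested genes were, and the median was 0.13, beside 0.02 for all tested genes. Cspg5, among the 14, passed the filter on low counts through its Nnmt KO libraries. Nothing is therefore read from the 14 or from the median. DESeq2 gave an adjusted p under 0.05 to 3 higher genes, Cyp4a12b, Selenbp2 and C6, and 1 lower gene, Mup1. Of all 15291 tested genes, 212 were higher and 290 lower by that test. Cyp4a12b passed narrowly by edgeR's test, where 0.320% of all tested genes passed in either direction. It was at 32.7 ± 6.5 CPM in Nnmt KO and 13.9 ± 4.06 CPM in control libraries (SD, n = 4 each), with a log2 fold change of 1.24 (SE 0.21, adjusted p = 0.0496 by edgeR's test). Its adjusted p ranged from 2.17e-05 to 0.159 over 12 alternatives and was under 0.05 in 3, namely by DESeq2's test, without Nnmt KO library a and without control library d. The urinary protein gene Mup1 was at 25.5 ± 13.1 and 68.6 ± 11.1 CPM, a log2 fold change of -1.43 (SE 0.35, adjusted p = 0.113 by edgeR's test), and Selenbp2, C6 and Cyp4a12a had log2 fold changes of 0.95 (SE 0.19), 0.53 (SE 0.11) and 1.89 (SE 0.57). Whether the genes of the Sult2a cluster and these lists differ for a shared reason was not tested.

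Over the 8 libraries, the tested genes outside the group whose log2 CPM was most like that of Sult2a1 were Wdr36, Gm26917, Ercc5, Mbl2 and Phf21b, with Pearson r from 0.97 to 0.99. These values are a description, since all genes share the same 8 libraries and Sult2a1 was chosen for its difference between the groups. With each group's mean removed, r with Sult2a1 was 0.95 for Wdr36, 0.86 for Gm26917, 0.81 for Ercc5, 0.63 for Mbl2 and 0.59 for Phf21b, and it was 0.98 for Sult2a2, 0.47 for Sult2a5, 0.49 for Sult2a8, 0.40 for Sult2a3 and 0.20 for Sult2a7. For the 7 members outside the cluster it ran from 0.11 for Sult5a1 to 0.59 for Sult1b1 and 0.66 for Sult1d1. The log2 fold changes of these 5 genes were 0.32 for Wdr36, 1.04 for Gm26917, 0.43 for Ercc5, 2.99 for Mbl2 and 0.97 for Phf21b. Transcripts of Sult2a2 and Sult2a1 are 97.6% identical, and the part of exchanged reads in the r between them was not tested.

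Markers of tissues outside the liver, Fabp2 apart, were low. The 5 kidney markers summed to at most 0.143 CPM in any library, with Kap, Aqp2 and Nphs1 at 0 in all 8. Of the pancreas markers, Prss1, Cpa1 and Pnlip were at 0 in all libraries, and the sum of 7.73 to 13.3 CPM came mostly from Cela1. The adrenal list summed to between 2.96 and 5.98 CPM, mostly from Cyp21a1, with Cyp11b1 at 0 in all libraries. The intestine list summed to between 26.2 and 55.8 CPM, nearly all from Fabp2, with its highest sum in control library c and its lowest in control library d.

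The other liver cell types were present in both groups. Macrophage markers, led by Clec4f, summed to 329, 274, 270 and 300 CPM in Nnmt KO libraries a to d, with 169, 249, 224 and 325 CPM in control libraries a to d. Stellate cell markers, led by Dcn, summed to between 384 and 536 CPM in Nnmt KO and between 278 and 388 CPM in control libraries. Endothelial markers, led by Stab2, ranged from 159 to 194 CPM and from 128 to 267 CPM, and lymphocyte markers, led by Nkg7, from 2.33 to 3.27 CPM and from 1.82 to 2.35 CPM. None of these 4 lists had a gene at an adjusted p under 0.05 by edgeR's test or by DESeq2, and 3 stellate genes of 5, with 0 of the other lists, had an unadjusted p under 0.05, where 5.45% of all tested genes were higher at that threshold, namely Dcn, Reln and Lrat at log2 fold changes of 0.41 (SE 0.16), 0.41 (SE 0.18) and 0.34 (SE 0.14). Their part in the levels of the sulfotransferases was not tested.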

How the data were processed

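Liver RNA of 8 mice was read from a table of estimated counts per gene that the authors deposited as whole numbers, so that rounding changed nothing. The paper names HISAT2 for alignment and quantification, and the submitters' processing notes name HISAT2, StringTie and mm10, without versions. The annotation, the strand setting and the treatment of reads that match several genes are not given in the sources used here. That the counts are estimates was inferred from StringTie and from their low values. The paper names a KAPA kit for the libraries and the labels name NEBNext Ultra. No mouse number is given in the column names, only the genotype, so libraries were lettered a to d by their order within a genotype. No 2 libraries of a genotype were copies of each other, with a chi-square per degree of freedom from 42.2 to 263.

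Genes were kept by filterByExpr of edgeR 4.0.16 (minimum count 10) in R 4.3.3, which left 15291, and were scaled by TMM and tested by the quasi-likelihood test, with Benjamini-Hochberg adjustment over all of them. SE is the absolute log2 fold change divided by the square root of F. DESeq2 1.42.0, DESeq2's size factors, library size only, no filter on low counts and leaving out each library were alternatives. Positions, exon lengths and transcripts came from GENCODE M21 (GRCm38), and promoters from RefSeq.

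The members and lists were chosen with earlier results of these data known. Named are the members and Nnmt, in each list the genes at an adjusted p under 0.05 and otherwise up to 4 in each direction with the smallest unadjusted p under 0.05, the 5 genes most like Sult2a1, and the nearest tested gene on each side of the cluster. Genes named outside this rule, among them those with counts near 0 and examples of a list, were chosen after their values were seen. Sult7a1, Sts and Tf were not found in the table by symbol.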

Additional observations from a re-analysis of the deposited data

Results flagged for a closer look

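For the members, Nnmt, the TMM factors and the other genes given with values, groups of 4 libraries were examined for a value whose gap to the nearest other value, as a share of the group's range, exceeded Dixon's 95% critical value. Of 116 groups with any spread, 15 had one, where chance gives about 1 in 20, and 4 of the 15 are Sult2a4 and Sult2a6, each with counts in 1 library of a group and a gap of 1.

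Sult1d1 in control library c reached 43.8 CPM while its group was otherwise between 26.2 and 29.1 CPM, a gap of 0.833 of the range. Sult2a3 in control library a reached 23.2 CPM while the others were between 12.4 and 13.8 CPM, a gap of 0.869. Sult2b1 reached 0.755 CPM in Nnmt KO library a (gap 0.965) and 0.369 CPM in control library c (gap 0.88), where the others were at most 0.215 and 0.172 CPM.

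In Nnmt KO library a the TMM factor, 1.209, had a gap of 0.903, the other 3 being between 0.9524 and 0.9774. Mpst was at 54.3 CPM in this library, below 83.6 to 86 CPM in b to d (gap 0.923), and Cyp4a12a at 62.5 CPM, below 122 to 133 CPM (gap 0.844). In control libraries, Cyp4a12a reached 78.3 CPM in d (gap 0.844) and A1bg 2.9 CPM in b (gap 0.869), above at most 19.9 and 0.622 CPM elsewhere. Lig1 was at 6.02 CPM in control library b (gap 0.913) and Cyp2b9 at 170 CPM in control library c (gap 0.894), below at least 8.3 and 239 CPM elsewhere.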

How the results depend on the processing

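The log2 fold changes of Sult2a1 and Sult2a2 ranged from 3.13 to 3.73 and from 2.70 to 3.50 over the 12 alternatives. The number of members at an adjusted p under 0.05 counts the chosen pair alone, so that it describes the settings and tests nothing, and was 2 in the fit reported, 1 with DESeq2's size factors, 1 with library size only, 1 without a filter, 2 by DESeq2's test and 0 to 2 with a library left out. For these settings the count over all tested genes, 49 as reported, was 30, 22, 8, 502 and 6 to 149. The highest of these leave-one-out counts came without Nnmt KO library a, and 6 was reached without Nnmt KO library c and without control library a. With library size only, 19 of the 22 genes were higher, against 28 of 49 as reported, and by DESeq2's test 212 were higher and 290 lower. The log2 fold change of Nnmt was -1.28 by DESeq2, which put it under the threshold, and -1.52 to -0.94 with a library left out.

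At an unadjusted p under 0.05, other cytosolic sulfotransferases numbered 1 as reported, 3 without a filter (with Sult3a1 and Sult3a2 added) and 1 to 2 with a library left out, the second being Sult2a7 without Nnmt KO library a. Sult3a1 and Sult3a2 were at 0 in all control libraries and, like Sult2a5, were tested through their Nnmt KO libraries. Nothing is read from the rise in this count. The donor and sulfate supply genes numbered 5, and 3 to 5 with a library left out, 3 without Nnmt KO library d and without control library a. For lists whose alternatives were added after the data were seen, the membrane-bound sulfotransferases numbered 1, 2 by DESeq2 (Gal3st2 added) and 0 to 1 with a library left out. The 1 was Gal3st2 in place of Chst15 without Nnmt KO library c and without control library c. Gal3st2 had 0, 4, 24 and 20 counts in control libraries a to d, which alone would not have passed the filter on low counts. It passed through its Nnmt KO libraries, so nothing is read from its test. The neighbours of the cluster, another of these lists, numbered 1, 0 with library size only and 0 to 1 with a library left out. The count was 3 to 4 for the regulators, 9 to 13 for the female-typical and 5 to 6 for the male-typical genes over the 12 alternatives, with 13 reached without Nnmt KO library a, and with 1 lower gene, Cyp2b9, among 10 female-typical ones with library size only, without Nnmt KO library b and without control library c. The share of all tested genes at this threshold was taken in the reported fit alone, so nothing is read from changes in these counts. Without Nnmt KO library a, the genes at an adjusted p under 0.05 by edgeR's test also rose, from 49 to 149 over all tested genes. Without Nnmt KO library a, Hnf4a joined the regulators and Cyp7b1 the male-typical genes. Cspg5 joined the male-typical genes without control library c. It passed the filter through its Nnmt KO libraries, so nothing is read from its test. The alternatives for Cux2, Cyp3a16, Cyp3a41a, Cyp3a41b and Cyp4a12b were also added after the data were seen. The cause of these differences was not tested. No paired analysis was possible because the columns carry no mouse number.

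With 4 mice per genotype, SEs of the log2 fold changes of the 8 members outside the chosen pair ran from 0.13 to 0.37. Counts of Sult2a1 in control libraries were at most 46.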
